A study of Mus musculus with 6 samples.

Results

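Interferon-stimulated genes, the genes that cells switch on when interferon reaches them, were followed as a set of 40 named genes in mouse testis. The members are genes induced by type I or type II interferon, together with their regulators. They are taken by gene symbol, with no threshold on measured values, from a list drawn up with earlier results of these data known, and all 40 were among the 23253 genes listed in at least 1 of the 6 deposited tables. Polyadenylated RNA had been sequenced from testes of C57BL/6 mice aged 8 months. Of the 6 libraries, 3 carry the genotype label L3mbtl2 cKO (conditional knockout) and 3 carry the label control, and the design asks how the testicular transcriptome differs between these genotypes. L3MBTL2 is a chromatin protein of the Polycomb group. The labels do not name the Cre driver, the floxed allele or the cell type of the deletion, and they do not say whether libraries came from separate animals, so a p-value here speaks of the spread from library to library, part of which may be technical.

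Type I interferons bind the receptor made of IFNAR1 and IFNAR2, and the kinases JAK1 and TYK2 then activate STAT proteins. The ISGF3 complex, which holds STAT2 and IRF9, then binds the interferon-stimulated response element (ISRE) in promoters. Interferon gamma acts through its own receptor and through gamma-activated sites (GAS) in promoters. The induced proteins sense foreign nucleic acids, block viral entry and translation, and raise antigen presentation. In testis, the known producers of such responses include interstitial macrophages, Leydig cells and Sertoli cells, while most of the tissue's RNA comes from germ cells.

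The targeted gene ran against the genotype labels. L3mbtl2 (chr15:81663889-81688315, mm10) had 1030, 1105 and 1031 expected counts in libraries labelled cKO, against 658, 705 and 673 in those labelled control. The log2 fold change (labelled cKO minus labelled control, as everywhere below) was 0.67 (SE 0.10, edgeR adjusted p = 0.166). An exact two-sided permutation test gave p = 0.1, the smallest that 3 against 3 libraries allow. Its mean length in the deposited tables was 3492.7 bases in the libraries labelled cKO and 2716.6 in those labelled control, and its length-scaled level was 16.3 ± 0.663 FPKM in the libraries labelled cKO and 14.2 ± 0.660 in those labelled control (FPKM, read fragments scaled for gene length and library depth; SD, n = 3 each). The deposited tables are named with the genotype opposite to that in the sample titles. Each library is therefore called by its label, and every direction below would turn if the labels were exchanged. Total counts were 18604191 to 18822050 in the libraries labelled cKO and 17689205 to 18083291 in those labelled control. The groups were not equally tight: log2 counts correlated at 0.981 to 0.982 among the libraries labelled cKO and at 0.937 to 0.972 among those labelled control. Labelled control replicate 2 correlated at 0.980 to 0.982 with the libraries labelled cKO, and labelled control replicate 3 at 0.923 to 0.927. Germ cell RNA was abundant in every library, as the tissue label says: 10 spermatid markers summed to 24426.8 to 26764.5 FPKM in the libraries labelled cKO and to 16928.8 to 23720.1 in those labelled control.

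The interferon-stimulated genes were faint in these testes. Over the 6 libraries, 21 of the 40 members averaged at least 1 FPKM and 5 averaged at least 5 FPKM, with a median of 1.06. The most abundant was Dhx58, which encodes LGP2, a helicase that tunes the sensing of viral RNA. It averaged 19.4 ± 1.15 FPKM in the libraries labelled cKO and 17.6 ± 2.0 in those labelled control (SD, n = 3 each). Herc6, the main ligase for the ubiquitin-like protein ISG15 in mouse, averaged 7.42 ± 0.426 FPKM in the libraries labelled cKO and 6.74 ± 0.606 in those labelled control. The next 3 are effectors at membranes or outside the cell: the secreted glycoprotein gene Lgals3bp (6.23 ± 1.67 FPKM labelled cKO, 12.3 ± 8.43 labelled control), the virus tether gene Bst2 (4.65 ± 0.398 labelled cKO, 10.3 ± 5.73 labelled control) and the entry inhibitor gene Ifitm3 (4.03 ± 0.744 labelled cKO, 9.53 ± 6.95 labelled control). Dhx58 led the members in 5 of 6 libraries. In labelled control replicate 3 it came 4th, at 15.27 FPKM, behind Lgals3bp at 21.32, Ifitm3 at 17.09 and Bst2 at 16.46 FPKM. At the other end, members had as few as 2 counts in a library, and 10 members had under 10 counts in some library. No member was at 0 in any library.

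Between the genotype labels, most members were lower in the libraries labelled cKO, but none passed the test. Of the 40 members, 35 had enough counts to be tested, and 31 of these had a negative log2 fold change, against 50.5% of all 18269 genes tested. Their median was -0.89, a 1.85-fold lower level in the libraries labelled cKO, while the median of all genes tested was -0.005. With edgeR, 0 members were called lower and 0 higher at an adjusted p of 0.05. The background was the same, with 0.0% of all genes called in either direction and a lowest adjusted p of 0.166 over all genes. At an unadjusted p under 0.05, 11 of 35 members were lower and 0 higher, beside 18.8% of all genes lower and 8.85% higher. All 40 members could be fitted without the filter on low counts, and 34 of them were then negative with a median of -0.90. In bulk tissue, fewer cells of a type and less RNA per cell cannot be told apart.

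**Figure D1:**
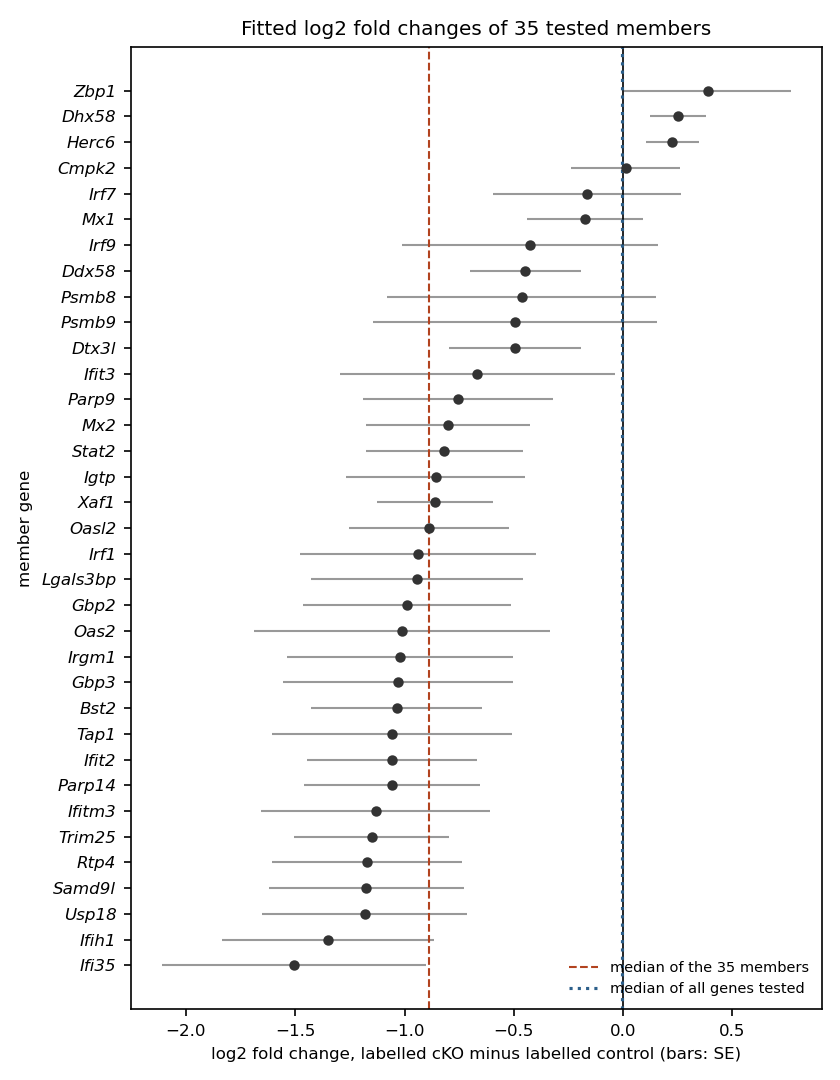
Fitted log2 fold change (x axis, labelled cKO minus labelled control) of each of the 35 tested members (y axis), with bars of 1 SE; the dashed line is the members' median of -0.89 and the dotted line the median of all genes tested, -0.005. Dhx58, Herc6, Zbp1 and Cmpk2 lie to the right of 0 and the other members to the left, from -0.17 for Irf7 to -1.50 for Ifi35.

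The size of the difference depended on which labelled control library was looked at. Summed over the 40 members, the level was 68.1, 70.3 and 63.8 FPKM in the libraries labelled cKO, against 95.4, 63.7 and 157 FPKM in those labelled control. Labelled control replicate 2 thus sat at the lower edge of the libraries labelled cKO, and replicate 3 far above all others. Per gene the same order returned: 30 of 35 tested members were highest in labelled control replicate 3, against 7465 of the 18269 genes tested, and 28 of 35 ran from replicate 3 through replicate 1 to replicate 2, against 34.7% of all genes. On the scale of the test, CPM, which are counts scaled to a common library size with TMM factors, 6 members had every library labelled cKO below every library labelled control (Ifit2, Bst2, Xaf1, Trim25, Gbp2 and Samd9l), beside 19.8% of all genes. Dhx58 and Herc6 were the 2 members with every library labelled cKO above, beside 18% of all genes. In both directions the members' share lay near or below that background. Labelled control replicate 2 fell inside the range of the libraries labelled cKO for 16 of the 35 tested members, above it for 7 and below it for 12.

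**Figure D2:**
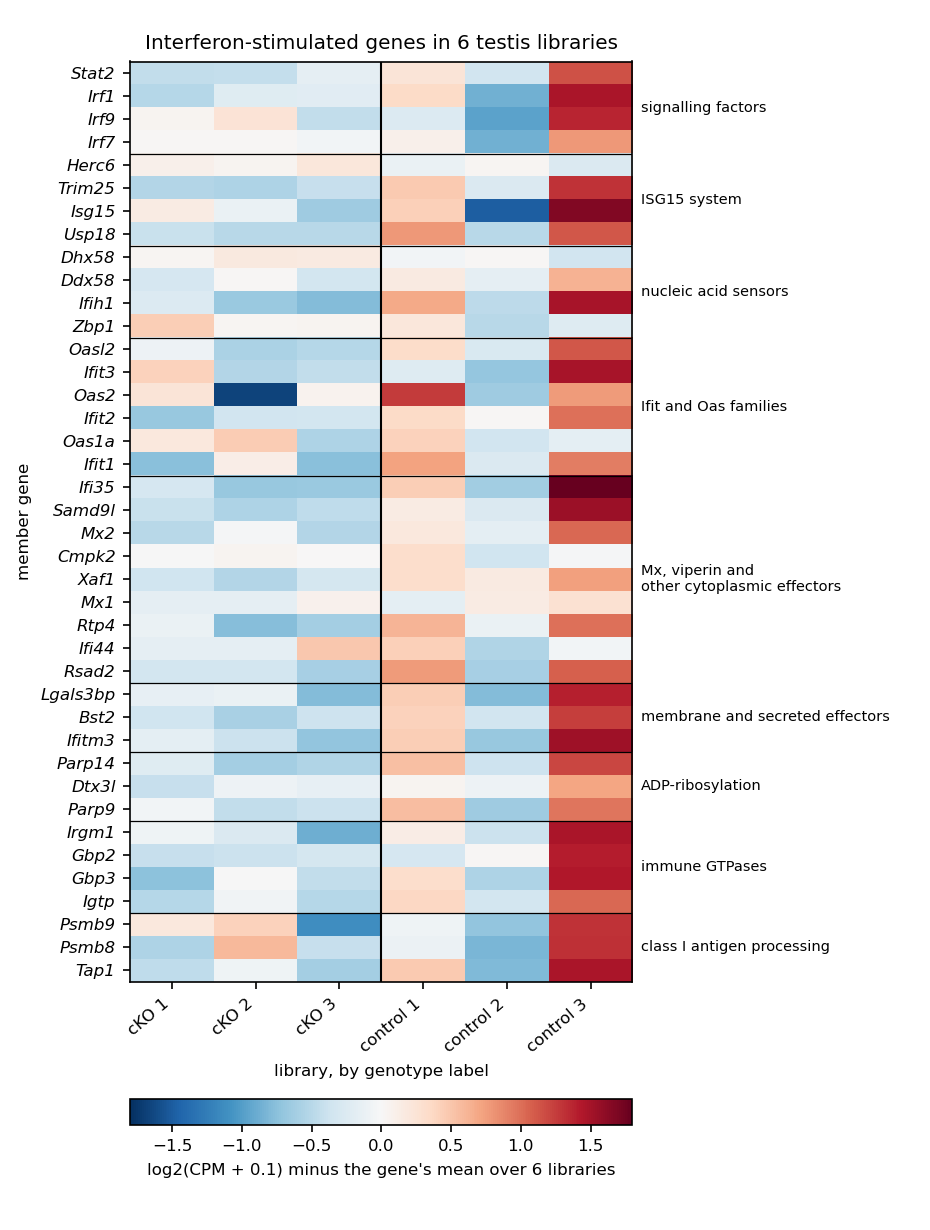
Each row is 1 of the 40 members, grouped by role, and each column 1 library, labelled cKO left and labelled control right; colour is log2(CPM + 0.1) minus the gene's mean over the 6 libraries. Labelled control replicate 3 is the darkest red column, with 30 of the 35 tested members highest there, and Dhx58 and Herc6 are pale blue there.

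Promoter sequence was read for the members from RefSeq (GRCm38.p6, 250 bases before to 50 bases after the start of the gene), where 31 of 40 members had an entry. Oas2, Rtp4, Mx1, Mx2, Parp9, Zbp1, Parp14, Dhx58 and Usp18 had none. An ISRE was searched as TTTCNNTTTC on both strands (GAAANNGAAA on the other), and a GAS as TTCNNNGAA, which reads the same on both strands; matches of the 2 motifs may overlap. The ISRE letters were found in 14 of the 31 members (45.2%), against 3.99% of 27025 mouse genes. The GAS letters were found in 8 of 31 (25.8%), against 9.55% of all genes, and 1 or both in 18 of 31 (58.1%), against 12.9%. Between the genotype labels, the 10 tested members with the ISRE letters had a median log2 fold change of -1.01 and all 10 were negative. The 16 tested members with a promoter entry but no such letters had a median of -0.87, with 14 negative. The ranges overlapped, at -1.35 to -0.45 with the letters and -1.50 to 0.22 without. Members without an entry are in neither group, among them Dhx58 and Zbp1 with positive values and the rest with negative ones. A difference between the 2 groups was not tested. The promoters below show the range among the members. Bst2 and Ifitm3, among the 5 most abundant members, each hold the ISRE letters at 2 places and the GAS letters at 1. In Bst2 the GAS letters and the second ISRE match each overlap the first ISRE match, but not each other. In Ifitm3 the GAS letters overlap the second ISRE match and not the first. Ifi35, with the most negative log2 fold change, holds the GAS letters alone. Trim25, with the smallest p, Herc6, 1 of the 2 members with every library labelled cKO higher, and Psmb9 hold neither. Capitals mark the bases matched by either motif, and all are written 5′ to 3′ on the gene's own strand.
Bst2 (chr8:71537423-71537722, minus strand): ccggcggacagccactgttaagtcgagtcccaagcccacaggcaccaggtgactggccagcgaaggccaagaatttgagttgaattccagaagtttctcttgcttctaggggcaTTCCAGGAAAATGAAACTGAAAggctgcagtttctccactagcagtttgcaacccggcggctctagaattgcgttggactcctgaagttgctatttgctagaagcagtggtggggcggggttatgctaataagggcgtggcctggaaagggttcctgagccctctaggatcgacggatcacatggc
Ifitm3 (chr7:141010695-141010994, minus strand): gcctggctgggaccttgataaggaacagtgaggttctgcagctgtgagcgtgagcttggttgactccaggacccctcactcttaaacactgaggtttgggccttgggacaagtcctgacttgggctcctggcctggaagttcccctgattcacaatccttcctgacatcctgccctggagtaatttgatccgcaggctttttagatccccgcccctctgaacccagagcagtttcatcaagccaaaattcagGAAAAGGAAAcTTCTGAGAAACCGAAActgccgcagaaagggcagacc
Ifi35 (chr11:101448162-101448461, plus strand): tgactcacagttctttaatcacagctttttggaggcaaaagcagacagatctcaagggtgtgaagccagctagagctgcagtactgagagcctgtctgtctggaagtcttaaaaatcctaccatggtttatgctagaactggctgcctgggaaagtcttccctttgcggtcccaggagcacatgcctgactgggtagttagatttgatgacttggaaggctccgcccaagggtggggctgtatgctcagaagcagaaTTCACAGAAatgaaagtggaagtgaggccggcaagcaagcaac
Trim25 (chr11:88999153-88999452, plus strand): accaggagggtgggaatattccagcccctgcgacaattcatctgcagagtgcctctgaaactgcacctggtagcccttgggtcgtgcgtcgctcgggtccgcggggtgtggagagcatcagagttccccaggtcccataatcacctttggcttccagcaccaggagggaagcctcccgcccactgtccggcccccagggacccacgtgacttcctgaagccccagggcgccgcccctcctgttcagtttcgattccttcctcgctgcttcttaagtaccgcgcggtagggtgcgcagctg
Herc6 (chr6:57580742-57581041, plus strand): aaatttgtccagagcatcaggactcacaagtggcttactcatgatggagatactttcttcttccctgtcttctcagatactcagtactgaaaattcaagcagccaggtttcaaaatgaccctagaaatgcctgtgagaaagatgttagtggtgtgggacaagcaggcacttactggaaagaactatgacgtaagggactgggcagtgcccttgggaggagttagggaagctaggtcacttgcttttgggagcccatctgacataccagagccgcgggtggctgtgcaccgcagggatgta
Psmb9 (chr17:34187281-34187580, minus strand): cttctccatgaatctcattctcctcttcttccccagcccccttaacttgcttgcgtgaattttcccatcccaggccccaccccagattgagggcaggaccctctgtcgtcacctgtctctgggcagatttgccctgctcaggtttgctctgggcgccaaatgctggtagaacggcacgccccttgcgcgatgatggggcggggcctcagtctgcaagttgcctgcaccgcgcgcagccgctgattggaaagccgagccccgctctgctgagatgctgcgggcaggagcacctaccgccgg
Counted from the gene's start, the ISRE letters of Bst2 span -130 to -121 and -124 to -115, and those of Ifitm3 span 3 to 12 and 20 to 29. The Psmb9 window shares 275 bases (chr17:34187306-34187580) with the window of its neighbour Tap1, which is read from the opposite strand, so the pair has a common promoter region. A match to these letters is a description of the sequence and does not show that a factor binds there.

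Among the signalling factors, STAT2 and IRF9 are parts of ISGF3, IRF1 is an activator induced through GAS elements, and IRF7 amplifies the production of type I interferon. All 4 had negative log2 fold changes (median -0.62), and all 4 were highest in labelled control replicate 3. Stat2 had 6.86, 6.94 and 8.33 CPM in the libraries labelled cKO, against 11, 7.32 and 20.7 CPM in those labelled control (log2 fold change -0.82, SE 0.36, edgeR adjusted p = 0.184). Irf1 had 2.21, 2.75 and 2.78 CPM in the libraries labelled cKO, against 4.09, 1.71 and 9.05 in those labelled control (-0.94, SE 0.54, adjusted p = 0.262). In both genes labelled control replicate 2 lay among or below the libraries labelled cKO. Irf9 had 2.76, 3.19 and 1.94 CPM in the libraries labelled cKO, against 2.23, 1.32 and 7.07 in those labelled control, where replicate 3 alone was high (-0.43, SE 0.59, adjusted p = 0.630). Without that library the log2 fold change of Irf9 was 0.56. Irf7 averaged 1.79 ± 0.058 CPM in the libraries labelled cKO and 2.0 ± 1.12 in those labelled control (SD, n = 3 each). Its log2 fold change was -0.17, and 0.32 without labelled control replicate 3.

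ISG15 is a ubiquitin-like modifier; HERC6 attaches it in mouse, USP18 removes it and also restrains signalling at IFNAR2, and TRIM25 is a ubiquitin ligase that activates the RNA sensor RIG-I. The 2 ligase genes differed in sign. Trim25 (chr11:88999403-89020294) had 13.2, 13 and 14.3 CPM in the libraries labelled cKO, against 26.6, 15.9 and 47.4 CPM in those labelled control. The groups did not overlap, and Trim25 had the smallest p of the members (log2 fold change -1.15, SE 0.35, edgeR adjusted p = 0.166), with -0.66 without labelled control replicate 3. Herc6 (chr6:57580992-57665136) had 37.3, 36.1 and 40.1 CPM in the libraries labelled cKO, against 32.1, 35.9 and 29.2 in those labelled control (0.22, SE 0.12, adjusted p = 0.237). These groups did not overlap either, by a margin smaller than the spread within each, and labelled control replicate 3, the highest library for Trim25, was the lowest for Herc6. Usp18 had 0.719, 0.661 and 0.666 CPM in the libraries labelled cKO, against 1.75, 0.660 and 2.25 in those labelled control (-1.18, SE 0.47, adjusted p = 0.172). Isg15 itself was too low to test, with 10, 8 and 5 expected counts in libraries labelled cKO, against 13, 2 and 33 in those labelled control. Its lowest and its highest library both carried the label control.

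**Figure D3:**
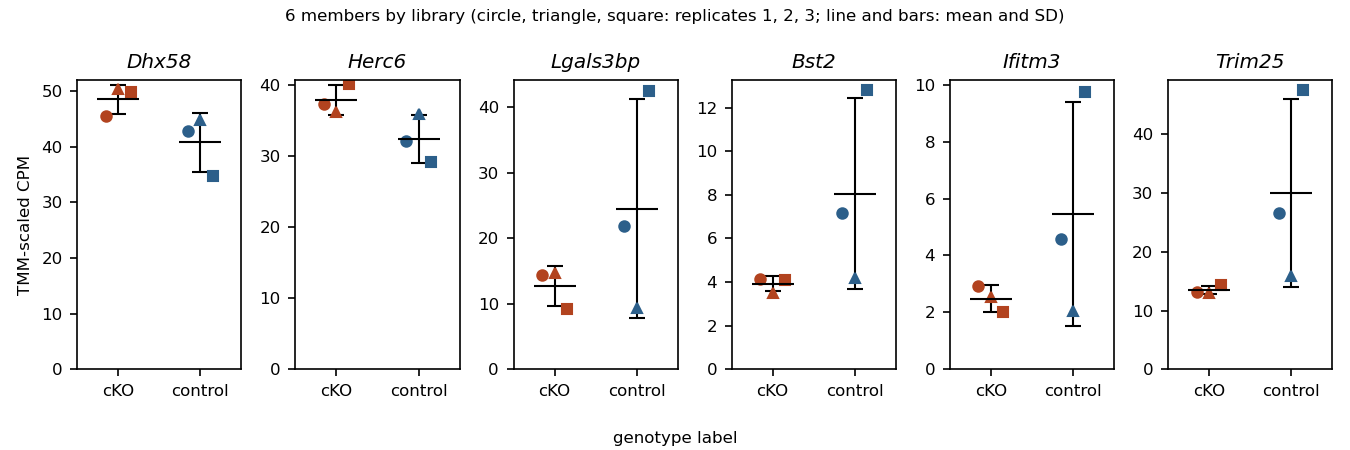
TMM-scaled CPM (y axes, each from 0) of 6 members by genotype label, labelled cKO left and labelled control right; circle, triangle and square are replicates 1, 2 and 3, and lines with bars are mean and SD. The libraries labelled cKO spread less than those labelled control in each panel, and labelled control replicate 3 is the highest library for Lgals3bp, Bst2, Ifitm3 and Trim25 (47.4 CPM) and the lowest for Dhx58 (34.8 CPM) and Herc6.

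The nucleic acid sensors split by gene. Ifih1, which encodes the long double-stranded RNA sensor MDA5, had 2.54, 1.87 and 1.72 CPM in the libraries labelled cKO, against 4.89, 2.15 and 8.62 in those labelled control (log2 fold change -1.35, SE 0.49, edgeR adjusted p = 0.167). Ddx58, which encodes RIG-I, had 5.53, 6.94 and 5.44 CPM in the libraries labelled cKO, against 7.66, 6.11 and 10.7 in those labelled control (-0.45, SE 0.25, adjusted p = 0.258). Dhx58 (chr11:100694884-100704271) ran the other way, with 45.5, 50.3 and 49.8 CPM in the libraries labelled cKO, against 42.9, 44.8 and 34.8 in those labelled control (0.25, SE 0.13, adjusted p = 0.221). RIG-I, MDA5 and LGP2 are related helicases, and the 3 genes thus differed in sign. The values of Dhx58 and Herc6 were positive under all alternatives run, from 0.14 to 0.34 for Dhx58 and from 0.12 to 0.32 for Herc6, with no call. On the FPKM scale, which has no TMM scaling, the groups of both genes overlapped. Zbp1, a sensor of Z-form nucleic acids that can start necroptosis, had 15, 11 and 11 expected counts in libraries labelled cKO, against 13, 7 and 9 in those labelled control. Its log2 fold change of 0.39 came to -0.01 on unfiltered FPKM values, and its listed length varied 2.08-fold between libraries.

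The IFIT proteins bind viral RNA with foreign ends, and the OAS enzymes make oligoadenylates that activate RNase L. All 4 tested genes of these families were negative (median -0.95). Ifit2 had 0.498, 0.661 and 0.666 CPM in the libraries labelled cKO, against 1.12, 0.880 and 1.82 in those labelled control, without overlap (-1.06, SE 0.39, edgeR adjusted p = 0.167). Its neighbour on chromosome 19, Ifit3, had 1.88, 0.936 and 0.999 CPM in the libraries labelled cKO, against 1.17, 0.825 and 4.07 in those labelled control (-0.67, SE 0.63, adjusted p = 0.478). Among the labelled control libraries Ifit3 was thus high in replicate 3 alone, and without that library its log2 fold change was 0.35. Oasl2 had 5.03, 3.58 and 3.72 CPM in the libraries labelled cKO, against 6.75, 4.40 and 11.7 in those labelled control (-0.89, SE 0.37, adjusted p = 0.175). Oas2 had 16, 3 and 14 expected counts in libraries labelled cKO, against 36, 8 and 25 in those labelled control (-1.01, SE 0.68, adjusted p = 0.324). Ifit1 and Oas1a were too low to test: Ifit1 had 3, 7 and 3 expected counts in libraries labelled cKO and 12, 5 and 14 in those labelled control, and Oas1a had 8, 10 and 4 in those labelled cKO and 10, 5 and 6 in those labelled control. Ifit3 and Oas1a have near-identical neighbours (Ifit3b, Oas1g) with which reads can be shared, so their values are uncertain.

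Of the 9 other cytoplasmic effectors, 7 were tested and 6 of these were negative (median -0.86). Ifi35, a partner of the interferon-induced protein NMI, had 1.60, 1.21 and 1.22 CPM in the libraries labelled cKO, against 2.76, 1.27 and 7.45 in those labelled control. Its log2 fold change of -1.50 was the most negative of the members and also had 1 of the larger errors (SE 0.60, edgeR adjusted p = 0.173). Samd9l, which restrains translation and cell growth, had 6.52, 5.89 and 6.27 CPM in the libraries labelled cKO, against 9.57, 7.21 and 25.4 in those labelled control, without overlap (-1.18, SE 0.45, adjusted p = 0.169). Xaf1, whose product opposes the caspase inhibitor XIAP, had 1.99, 1.76 and 2.05 CPM in the libraries labelled cKO, against 3.24, 2.92 and 4.39 in those labelled control (-0.86, SE 0.27, adjusted p = 0.166). Here all labelled control libraries, replicate 2 included, stood clear of the libraries labelled cKO. Mx2 had 1.88, 2.64 and 1.83 CPM in the libraries labelled cKO, against 3.08, 2.37 and 5.62 in those labelled control (-0.80, SE 0.38, adjusted p = 0.199). The other dynamin-like GTPase gene of this family, Mx1, had a log2 fold change of -0.17 (1.88 ± 0.198 CPM labelled cKO, 2.12 ± 0.335 labelled control; SD, n = 3 each). Rtp4, which encodes a Golgi chaperone, had 12, 7 and 8 expected counts in libraries labelled cKO, against 22, 12 and 29 in those labelled control (-1.17). Rsad2, which encodes viperin, and Cmpk2, which encodes a nucleotide kinase, lie side by side on chromosome 12 and differed. Rsad2 had 4, 4 and 3 expected counts in libraries labelled cKO and 11, 3 and 14 in those labelled control, too low to test. Cmpk2 averaged 3.81 ± 0.0832 CPM in the libraries labelled cKO and 3.78 ± 0.911 in those labelled control, a log2 fold change of 0.01 that lay between -0.13 and 0.21 over the alternatives, at -0.09 when library totals replaced TMM. Ifi44, also untested, had 7, 7 and 12 expected counts in libraries labelled cKO and 12, 5 and 8 in those labelled control.

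The 3 membrane and secreted effectors shared 1 pattern across libraries, with a median log2 fold change of -1.04. Bst2 (chr8:71534255-71537472), whose product holds budding virions at the cell surface, had 4.15, 3.52 and 4.11 CPM in the libraries labelled cKO, against 7.18, 4.18 and 12.8 in those labelled control (-1.04, SE 0.39, edgeR adjusted p = 0.167). Ifitm3 (chr7:141009590-141010744), whose product blocks fusion of viruses with endosomes, had 2.93, 2.53 and 2.0 CPM in the libraries labelled cKO, against 4.57, 2.04 and 9.75 in those labelled control (-1.13, SE 0.52, adjusted p = 0.195). Lgals3bp (chr11:118392747-118401959), which encodes a secreted galectin-binding glycoprotein, had 14.4, 14.7 and 9.27 CPM in the libraries labelled cKO, against 21.9, 9.30 and 42.4 in those labelled control (-0.94, SE 0.49, adjusted p = 0.224). Labelled control replicate 1 lay above and replicate 3 far above the libraries labelled cKO in each of these genes. Replicate 2 cleared them by a small margin in Bst2 and lay among them in Ifitm3 and Lgals3bp.

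The ADP-ribosylation genes Parp14, Parp9 and Dtx3l lie together on chromosome 16; PARP9 and DTX3L act as a complex that modifies histones. Parp14 had 3.21, 2.42 and 2.55 CPM in the libraries labelled cKO, against 5.48, 2.86 and 8.73 in those labelled control (log2 fold change -1.06, SE 0.40, edgeR adjusted p = 0.169). Parp9 had 1.71, 1.27 and 1.33 CPM in the libraries labelled cKO, against 2.66, 1.10 and 3.54 in those labelled control (-0.76, SE 0.44, adjusted p = 0.263). Dtx3l had 2.05, 2.59 and 2.5 CPM in the libraries labelled cKO, against 2.87, 2.59 and 4.61 in those labelled control (-0.50, SE 0.30, adjusted p = 0.284). None of the 3 separated the groups. Parp9 and Dtx3l overlap in the annotation, and since no source used here gives the strandedness, reads of the pair cannot be told apart in the shared part.

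The immune GTPases, which attack the membranes around intracellular pathogens, are known chiefly as targets of interferon gamma. All 4 were negative (median -1.01) and highest in labelled control replicate 3. Gbp2 had 1.60, 1.65 and 1.72 CPM in the libraries labelled cKO, against 1.75, 2.2 and 5.95 in those labelled control (log2 fold change -0.99, SE 0.48, edgeR adjusted p = 0.206). Although these groups did not overlap, replicate 1 exceeded the highest library labelled cKO by a small margin. Gbp3 had 1.16, 1.98 and 1.44 CPM in the libraries labelled cKO, against 2.5, 1.32 and 5.57 in those labelled control (-1.03, SE 0.53, adjusted p = 0.221). Irgm1 had 2.21, 1.93 and 1.22 CPM in the libraries labelled cKO, against 2.55, 1.76 and 6.59 in those labelled control (-1.02, SE 0.52, adjusted p = 0.219). Igtp averaged 1.25 ± 0.251 CPM in the libraries labelled cKO and 2.27 ± 1.09 in those labelled control (SD, n = 3 each; -0.86). For Gbp3, Irgm1 and Igtp, replicate 2 lay within the range of the libraries labelled cKO.

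Of the genes that prepare peptides for MHC class I, Psmb8 and Psmb9 encode subunits of the immunoproteasome and Tap1 a subunit of the peptide transporter. Tap1 had 1.49, 1.98 and 1.33 CPM in the libraries labelled cKO, against 2.92, 1.16 and 5.95 in those labelled control (log2 fold change -1.06, SE 0.55, edgeR adjusted p = 0.226). Psmb8 had 0.940, 2.2 and 1.05 CPM in the libraries labelled cKO, against 1.33, 0.770 and 3.70 in those labelled control (-0.46, SE 0.61, adjusted p = 0.616). Psmb9 had 1.11, 1.32 and 0.389 CPM in the libraries labelled cKO, against 0.904, 0.550 and 2.52 in those labelled control (-0.49, SE 0.65, adjusted p = 0.614). Among the labelled control libraries the 2 proteasome genes were high in replicate 3 alone, and without it the log2 fold change was 0.41 for Psmb8 and 0.36 for Psmb9. Tap1 kept a negative value without it, at -0.35.

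The receptors, transducers and other pathway genes leaned the same way as the members, and the ligands did not. Outside the ligands, genes given below with an FPKM were picked for the smallest p in their list. They do not stand for the list, whose median is given beside them. Interferon transcripts were at the limit of detection: 8 of 20 ligand genes were listed in any library, none above 0.30 FPKM, and none passed the filter on low counts. Their summed level was 0.23, 0.42 and 0.56 FPKM in the libraries labelled cKO, against 0.32, 0.23 and 0.14 FPKM in those labelled control. Ifng was listed at 0.05 FPKM in labelled cKO replicate 2 and labelled control replicate 2 and at 0 elsewhere, and Ifnb1 was listed nowhere. All 6 receptor genes were negative (median -0.69), with 0 called by edgeR and 4 lower at an unadjusted p under 0.05, beside 18.8% of all genes. DESeq2, which called 7.66% of all genes lower, called 3 of the 6 lower (Ifnar2, Ifngr1 and Il10rb). Among them, Ifnar2 averaged 3.40 ± 0.440 FPKM in the libraries labelled cKO and 10.5 ± 6.97 in those labelled control (-1.49, SE 0.44, adjusted p = 0.166). The interferon gamma receptor gene Ifngr1 averaged 4.34 ± 0.522 FPKM in the libraries labelled cKO and 7.94 ± 2.73 in those labelled control (-0.82, SE 0.25, adjusted p = 0.166). Of the 11 genes of JAK-STAT transduction and its inhibition, 10 were negative (median -0.59); edgeR called 0, and DESeq2 called Jak1 and Jak2 lower. Jak2, a kinase of the interferon gamma receptor, averaged 1.67 ± 0.269 FPKM in the libraries labelled cKO and 3.97 ± 2.07 in those labelled control. The phosphatase gene Ptpn6, which dampens cytokine signalling in blood cells, averaged 0.540 ± 0.148 FPKM in the libraries labelled cKO and 1.40 ± 0.599 in those labelled control. Of 16 genes that induce interferon, 12 were negative (median -0.68); edgeR called 0, and DESeq2 called Traf6 and Mavs lower. Mavs, the mitochondrial adaptor below RIG-I and MDA5, averaged 3.76 ± 0.344 FPKM in the libraries labelled cKO and 9.94 ± 5.76 in those labelled control. Of the other 14 genes of class I presentation, all 14 were negative (median -0.87); edgeR called 0, and DESeq2 called H2-D1, Psme1, Psme2 and Erap1 lower. The proteasome activator gene Psme2 averaged 9.60 ± 0.566 FPKM in the libraries labelled cKO and 21.7 ± 12.5 in those labelled control. A further 37 interferon-induced genes outside the set gave 30 tested genes, of which 25 were negative (median -0.70); edgeR called 0, and DESeq2 called Lgals9, Gbp7, Tor3a and Ifi27 lower. Of these, the torsin gene Tor3a averaged 0.377 ± 0.106 FPKM in the libraries labelled cKO and 1.07 ± 0.445 in those labelled control, and the galectin gene Lgals9 averaged 1.56 ± 0.225 FPKM in the libraries labelled cKO and 5.65 ± 4.25 in those labelled control. Without labelled control replicate 2, edgeR called 20.7% of all genes lower and 11% higher. In that fit it called lower 4 of 6 receptor, 6 of 11 JAK-STAT and 8 of 16 induction genes. It also called lower 10 of 14 class I genes and 12 of 32 further interferon-induced genes. It called higher 1 JAK-STAT gene and 1 further interferon-induced gene. When labelled control replicate 3 was left out instead, edgeR called 0 genes of these lists. Medians were then -0.46 for receptor, -0.29 for JAK-STAT, -0.31 for induction, -0.37 for class I and -0.14 for further interferon-induced genes.

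Markers of most somatic cell types and of spermatogonia moved with the members across the labelled control libraries. As mean log2 CPM over the tested members, the libraries labelled cKO stood at 1.43, 1.38 and 1.27. Against the mean of those 3, labelled control replicates 1, 2 and 3 differed by 0.56, -0.11 and 1.31. The 14 macrophage markers differed by 0.94, 0.05 and 1.68, the 10 Leydig markers by 1.32, 0.44 and 2.34, the 13 Sertoli markers by 0.76, 0.29 and 1.43 and the 10 endothelial markers by 0.56, -0.02 and 1.18, while all genes tested differed by 0.10, 0.03 and 0.21. The order of the labelled control libraries was thus the same in the members and in these somatic lists. The mean of all genes tested had this order as well, with smaller differences. The 8 spermatogonium markers had this order too, with differences of 0.44, 0.30 and 0.71. Spermatocyte markers ran opposite, with differences of -0.27, -0.01 and -0.48, and so did spermatid markers, with -0.33, -0.13 and -0.63. Counted by gene, 13 of 14 macrophage, 10 of 10 Leydig, 13 of 13 Sertoli, 9 of 10 endothelial and 10 of 11 peritubular myoid and stromal and 6 of 8 spermatogonium markers had negative log2 fold changes, and 0 of 10 spermatid markers did; none of these lists had a gene called by edgeR. DESeq2, which called 7.66% of all genes lower, called lower 6 of 14 macrophage, 5 of 10 Leydig and 11 of 13 Sertoli markers. It also called lower 1 of 10 endothelial, 4 of 11 peritubular and 2 of 8 spermatogonium markers. Without labelled control replicate 2, edgeR called 20.7% of all genes lower and 11% higher. Of the markers, it called lower 12 of 14 macrophage, 10 of 10 Leydig, 12 of 13 Sertoli and 5 of 10 endothelial. Among peritubular markers it called 8 of 11 lower, and among spermatogonium markers 4 of 8. In that fit it called higher Aif1 among the macrophage markers, 1 peritubular marker, 7 of 10 spermatocyte and 7 of 10 spermatid markers. With labelled control replicate 3 left out instead, edgeR called 0 genes of these lists. Median log2 fold changes moved from -1.24 to -0.58 for macrophage, -1.56 to -0.95 for Leydig and -0.97 to -0.55 for Sertoli markers. They moved from -0.70 to -0.31 for endothelial, -0.71 to -0.42 for peritubular and -0.44 to -0.39 for spermatogonium markers. The summed level of the Leydig markers was 1277.8 to 1388.5 FPKM in the libraries labelled cKO and 1727.2 to 8884.8 in those labelled control. The summed macrophage level was 397 to 426 FPKM in the libraries labelled cKO and 398 to 519 in those labelled control. Most of that sum came from Aif1, which averaged 354 ± 14.3 FPKM in the libraries labelled cKO and 290 ± 42.2 in those labelled control. The sum of the other 13 markers, taken after these values were seen, was 53.2 to 60.4 FPKM in the libraries labelled cKO and 61.2 to 263 in those labelled control. No macrophage, Leydig, Sertoli or endothelial marker was at 0 in any library. Lymphocyte and plasmacytoid cell markers were faint, with 6 of 14 tested and Cd79a, Siglech and Ccr9 at 0 in some libraries. Labelled control replicates 1, 2 and 3 differed by 0.132, 0.161 and 0.335 in this list, a different order from the members. Of the 6 tested, 4 had negative log2 fold changes. The part of these cell markers in the members' difference was not tested.

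**Figure D4:**
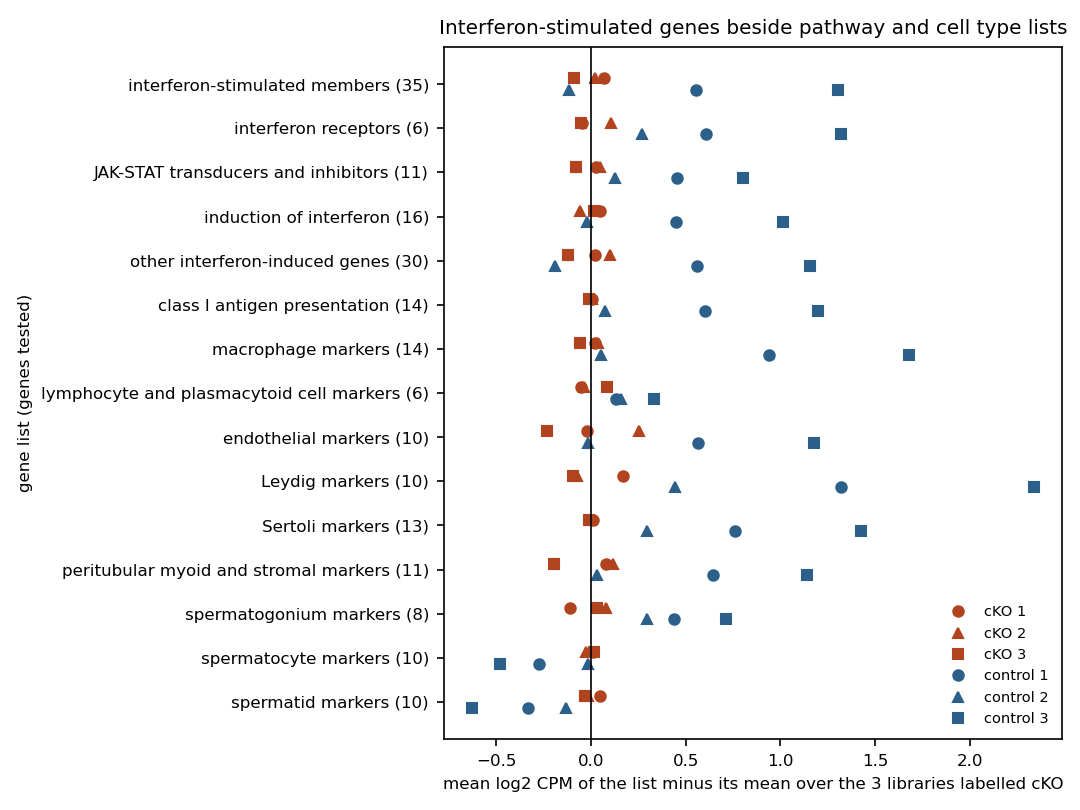
Mean log2 CPM of each gene list (y axis, genes tested in parentheses) minus its mean over the 3 libraries labelled cKO (x axis), with 1 point per library. In the members, the somatic marker lists and the pathway lists, labelled control replicate 3 lies farthest right, at 1.31 for the members and 2.34 for Leydig markers, with replicate 1 between it and replicate 2 in all of these but the lymphocyte list; for the libraries labelled control, spermatid and spermatocyte markers lie left of 0.

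How many members were called rested on the tool and on a single library. DESeq2 at its defaults called 1 member, Trim25, lower (log2 fold change -1.13, adjusted p = 0.0232) and 0 higher, of 34 members with an adjusted p. Its background was 7.66% of genes called lower and 0.405% called higher. With edgeR and without labelled control replicate 2, 19 of 39 tested members were called lower and 0 higher, beside 20.7% of all genes lower and 11% higher. The 19 were Igtp, Irf1, Lgals3bp, Stat2, Samd9l, Tap1, Trim25, Oasl2, Usp18, Xaf1, Parp14, Gbp3, Rsad2, Ifitm3, Rtp4, Bst2, Ifi35, Ifih1 and Parp9. In that fit the median over all tested members was -1.18. Without labelled control replicate 3 the median was -0.32, 27 of 36 tested members were negative, and 0 were called.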

How the data were processed

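Poly(A)-selected testis RNA of 6 libraries was analysed from the deposited tables, grouped by genotype label. Per the file headers, each table gives for a gene its length, an expected count (not normalized by the authors) and an FPKM, which the authors scaled for length and depth. The submitters' processing notes name bcl2fastq 2.16, HISAT2 2.0.4, Bowtie2 2.2.5, RSEM, DESeq2 and mm10, without roles. Expected counts, of which 24.6 to 25.8% were not whole, were rounded. Genes missing from a table were taken as 0; the lowest FPKM listed was 0.01. No mitochondrially encoded gene was listed. Coordinates are from RefSeq (GRCm38.p6, the primary assembly of mm10).

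Genes were kept by filterByExpr (minimum count 10, minimum total 15), scaled by TMM and compared by the quasi-likelihood F-test of edgeR 4.0.16 in R 4.3.3, with Benjamini-Hochberg adjustment over all 18269 genes at 0.05. CPM are TMM-scaled. List means use log2 CPM with a prior count of 2. The common biological coefficient of variation was 22.8%; counting error adds to this for members near 10 counts. The members and gene lists were chosen with earlier results of these data known. In each role, full values are given for up to 3 tested members highest in FPKM. Across all roles, they are also given for the 4 tested members with the smallest p and the 4 with the largest change in either direction. Other members have shorter values, and pathway genes are those with the smallest p in their list. Alternatives were DESeq2 1.42.0 with its defaults, DESeq2 size factors or library totals in edgeR, no filter, and a filter of 5 CPM in 3 libraries. Further alternatives were limma 3.58.1 on log2(FPKM + 1) with and without a filter of 1 FPKM in 3 libraries, and on log2(FPKM + 0.1) with that filter. Each library was also left out, and the replicate number was used as a block. Overlapping genes (13 of 40 members overlap another annotated gene) are uncertain, because no source used here gives the strandedness.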

Additional observations from a re-analysis of the deposited data

How the results depend on the processing

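Over all genes, edgeR called 0 higher and 0 lower; DESeq2 called 72 higher and 1363 lower, limma called 1 higher on log2(FPKM + 1), 1 on log2(FPKM + 0.1) and 1 higher and 1 lower without a filter, and leaving out 1 library gave 0 to 2049 higher and 0 to 3851 lower, the highest without labelled control replicate 2. Members called lower numbered 0, against 1 with DESeq2 and 0 to 19 with a library left out; 0 were called higher under any alternative. The members' median log2 fold change of -0.89 ranged from -1.18 without labelled control replicate 2 to -0.32 without replicate 3, and from -0.998 with library totals to -0.38 on unfiltered log2(FPKM + 1), a scale that understates changes of low genes. Library totals moved the median of all genes to -0.10. L3mbtl2 passed the threshold with DESeq2 (0.69) and without labelled control replicate 2 (0.73; 0.64 to 0.73 with a library left out), and was 0.19 to 0.20 on the limma FPKM scales. Without labelled control replicate 3, 4 of the members given in full turned positive, beside Irf7: Ifit3 (0.35; lowest -1.05), Irf9 (0.56; -0.79), Psmb8 (0.41; -0.95) and Psmb9 (0.36; -0.84). Over all members given in full, these 4 included, 16 of the values with a library left out newly passed the threshold and 154 kept their direction and side; under the other alternatives 1 (Trim25, DESeq2) newly passed and 214 kept both. The cause of these shifts was not tested. Same-numbered libraries did not deviate together (correlations 0.043, -0.007 and -0.039). With 3 libraries per group, these values cannot show whether the replicate numbers pair libraries. With the replicate number as a block 0 genes were called and the members' median was -0.78. The block changed no call. Counts under 10 limit 10 members, and 5 were tested only where the filter was lifted or a library was left out.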

Other observations

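Isg20, an interferon-induced exonuclease gene outside the set and singled out after its values were seen, was more abundant than any member. It was listed at 36.33, 43.07 and 36.72 FPKM in the libraries labelled cKO, against 33.31, 33.14 and 25.94 FPKM in those labelled control. The groups did not overlap, and the log2 fold change was 0.43 (SE 0.14, edgeR adjusted p = 0.166). Like Dhx58 and Herc6, it was lowest in labelled control replicate 3, where most interferon-stimulated genes were highest. That library was also the lowest for 6493 of the 18269 genes tested, 9 of 10 spermatocyte and 10 of 10 spermatid markers. On the CPM scale, 18% of all genes tested had every library labelled cKO above every library labelled control. Among the 38 members other than Dhx58 and Herc6, a split also made after the values were seen, the summed level was 42.7, 42.9 and 36.0 FPKM in the libraries labelled cKO, against 69.8, 37.7 and 136 FPKM in those labelled control, and the median log2 fold change of the 33 tested was -0.94.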
